A study of Mus musculus with 6 samples.

Results

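Undifferentiated mouse induced pluripotent stem (iPS) cells were compared with iPS cells taken through 3 versions of a cardiac differentiation protocol. The comparison used 4 of the 6 libraries of the study, and 22180 genes were measured in each. The labels give the strain DBA/2J and female sex for all of them. The undifferentiated cells, labelled iPS, had been kept on feeder cells in medium with serum and LIF, a cytokine that holds mouse stem cells in the pluripotent state. The 3 differentiated libraries came from cells grown for 5 days in suspension as embryoid bodies. These were then plated on gelatin and received 1% DMSO (DMSO_CMs), NRG-1 at 100 ng/ml (NRG1_CMs) or both agents (DMSO_NRG1_CMs), and were harvested at day 7 of differentiation. DMSO (dimethyl sulfoxide) is a solvent that can itself promote differentiation. The neuregulin NRG-1 belongs to the EGF family and activates ERBB receptors. No differentiated library without either agent was used here, so differentiation and the agents cannot be told apart. The labels do not say whether feeder cells were removed before the iPS library was made.

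Each library was hybridised to 1 Affymetrix Mouse Gene 2.0 ST array, a 1-colour array with probes along the transcripts of most genes. Values are log2 expression after RMA, in which background is modelled, all arrays are given a like distribution and several probes are combined into 1 value. Probe sets annotated with a single gene were averaged per gene. A gene was called higher or lower when every culture differed from the iPS library in the same direction by at least 1 log2, which is 2-fold. Each group had 1 library, so no difference could be tested against replicate error. The cultures had different treatments and are not replicates of each other, and the spread given is the range over the 3 of them. All 3 differences share the single iPS library, whose own error enters each of them. Culture values are given in the order DMSO, NRG-1, both agents. The medians of the 4 libraries lay between 5.13 and 5.26. For 968 genes with 2 probe sets, the mean differences of the 2 were compared. The SD of their disagreement, divided by the square root of 2 to describe 1 probe set, was 0.57.

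Pluripotent stem cells are held in a self-renewing state by a small set of transcription factors that activate one another and silence the genes of later lineages. When LIF is withdrawn and the cells aggregate into embryoid bodies, an outer layer of extraembryonic endoderm forms over a basement membrane, while inner cells pass through a primitive streak stage towards mesoderm, definitive endoderm and ectoderm. Heart muscle arises from part of the mesoderm, and surface epithelia arise from ectoderm and endoderm.

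In all 3 cultures 1290 genes were higher than in iPS cells, 5.82% of those measured, and 1485 were lower, 6.7%. Together 2775 genes, or 12.5%, differed in the same direction in every culture. Past 2 log2 in every culture the counts were 335 higher (1.51%) and 350 lower (1.58%), and past 4 log2 they were 33 and 39. No gene was at least 1 log2 higher in 1 culture and at least 1 log2 lower in another. The genes that rose had a median level of 6.21 in iPS cells and 8.23 in the cultures. The genes that fell went the other way, from a median of 8.26 to 6.30. When each library was instead shifted to an equal median of 10 housekeeping genes, the median difference of all genes moved from -0.01 to 0.14 and the split became 1545 higher and 1140 lower. The share of calls that were higher was then 57.5%, beside 46.5% with the deposited values. Of 16010 probe sets without a gene name, which entered no list, 5.8% were higher and 2.53% lower by the same rule. Lists of genes grouped by function or cell type, 37 with 571 different genes measured, are described next. Lists and members were chosen with earlier results of these data known. Their counts and medians, set beside those of all genes, are therefore descriptions and not independent evidence.

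**Figure D1:**
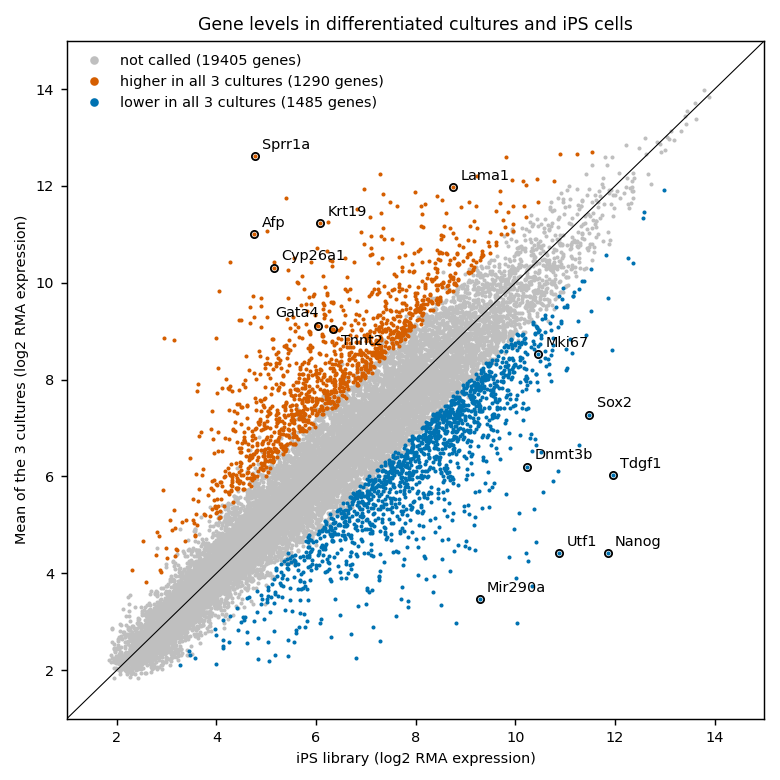
Each point is 1 gene, with its log2 RMA expression in the iPS library on the horizontal axis and the mean of the 3 differentiated cultures on the vertical axis; the line marks equal values. The 1290 genes higher and 1485 genes lower in all 3 cultures lie away from the line on both sides, with Sprr1a and Afp far above it and Nanog and Utf1 far below.

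Core pluripotency factors were lower in every culture than in iPS cells. Of 14 measured core and shared pluripotency factors 12 fell and none rose, with a median difference of -4.20 against -0.01 over all genes. Nanog, a homeobox factor at the centre of the network, measured 11.86 in iPS cells and 4.55, 4.29 and 4.39 in the cultures. Its mean difference of -7.44 (range -7.56 to -7.31) was the widest fall of the list, and the cultures lay within 0.26 of each other. Utf1, a chromatin-bound factor of pluripotent cells, measured 10.88 in iPS cells and 4.43, 4.61 and 4.19 in the cultures. Tdgf1, the Nodal co-receptor also called Cripto, measured 11.95 in iPS cells and 6.57, 5.50 and 6.02 in the cultures. The Sox2 gene, which encodes the partner of OCT4, fell from 11.49 to 7.89, 6.70 and 7.24, a difference of -4.21 (range -4.79 to -3.59). In both Tdgf1 and Sox2 the NRG-1 culture was the lowest and the DMSO culture the highest of the cultures. Pou5f1, which encodes OCT4, had a smaller difference of -1.998 (range -2.21 to -1.74), with 7.55 in iPS cells and 5.34, 5.80 and 5.50 in the cultures. Dppa2, Dppa4, Gdf3, Fgf4, Zfp42, L1td1 and Rif1 also fell, by means between -4.86 and -2.36. The other two members were Sall4, with a difference of -0.94 (range -0.95 to -0.92), and Dppa5a, which measured 4.91 in iPS cells and 4.67, 4.43 and 4.59 in the cultures.

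Among 12 naive pluripotency regulators 9 fell and 1 rose, with a median of -2.04. Nr0b1, which encodes the nuclear receptor DAX1, measured 10.21 in iPS cells and 4.53, 4.18 and 4.55 in the cultures. Tcl1, an AKT coactivator, fell from 8.52 to 4.47, 5.003 and 4.61. Prdm14, a repressor that guards the naive state, fell from 7.65 to 4.41, 4.35 and 4.54. Esrrb, an orphan nuclear receptor, measured 6.81 in iPS cells and 4.97, 4.85 and 5.10 in the cultures. In all 4 genes the iPS value lay above every culture, as the call requires. The Krüppel-like factors differed among themselves. Klf2 had a mean difference of -1.16 (range -1.34 to -0.95) and missed the call through the NRG-1 culture, at 7.89 against 8.84 in iPS cells. Klf5 measured 10.29 in iPS cells and 10.86, 11.02 and 10.81 in the cultures. Klf4, a reprogramming factor that is also a factor of differentiated epithelia, rose from 8.42 to 9.88, 10.60 and 10.19, with the NRG-1 culture highest.

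**Figure D2:**
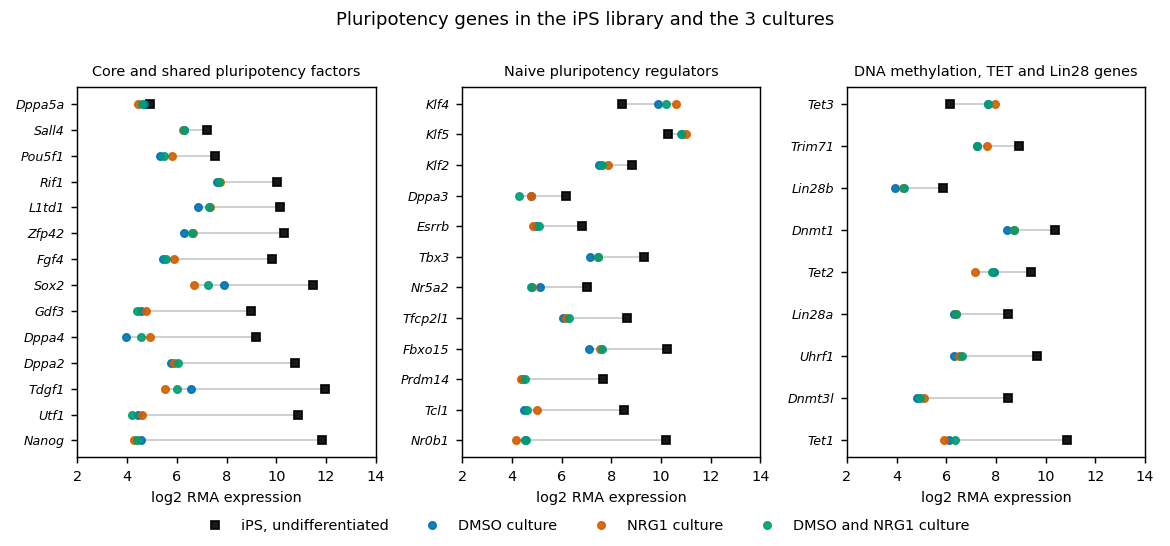
Log2 RMA expression of every measured member of 3 lists, with black squares for the iPS library and coloured circles for the 3 cultures; grey lines join the lowest and highest value. The iPS square lies to the right of all culture circles for every gene except Klf4, Klf5 and Tet3, where it lies on the other side.

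None of the genes that mark the step after the naive state was called higher. Of 10 post-implantation epiblast genes 6 fell and none rose, with a median of -1.26. Dnmt3b, a de novo DNA methyltransferase, fell from 10.24 to 5.93, 6.40 and 6.28. Otx2, a homeobox factor of the epiblast and anterior brain, fell from 6.59 to 3.98, 4.39 and 4.39. Fgf5, a growth factor switched on in the post-implantation epiblast, measured 5.22 in iPS cells and 5.63, 5.27 and 5.46 in the cultures. No culture was 1 log2 from the iPS library for this gene. Of 14 primitive streak and early mesoderm genes none fell and only Foxa2 rose (7.14%, beside 5.82% of all genes). Its values went from 6.80 to 9.12, 9.58 and 9.35. Foxa2 is shared with definitive and visceral endoderm. Mixl1, a streak homeobox gene, measured 4.84 in iPS cells and 4.85, 4.55 and 4.91 in the cultures. Mesp1, a factor of early cardiac mesoderm, measured 4.22 in iPS cells and 4.41, 4.17 and 4.22 in the cultures. Eomes, a T-box factor of the streak, measured 5.07 in iPS cells and 4.21, 4.42 and 4.24 in the cultures.

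Most enzymes of DNA methylation and demethylation also fell. Of 9 measured genes for these enzymes and for the Lin28 pathway 8 fell and 1 rose, with a median of -1.79. Tet1, which oxidises methylated cytosine, fell from 10.86 to 6.11, 5.91 and 6.35, a difference of -4.74 (range -4.96 to -4.51). Dnmt3l, the catalytically inactive partner of the de novo enzymes, fell from 8.47 to 4.84, 5.12 and 4.92. Uhrf1, which guides maintenance methylation at replication, fell from 9.64 to 6.31, 6.53 and 6.62. Dnmt1, the maintenance enzyme itself, fell by less, from 10.38 to 8.45, 8.72 and 8.72. Tet2 fell from 9.42 to 7.93, 7.14 and 7.82, and Tet3 rose from 6.13 to 7.66, 7.95 and 7.69. The family members TET1 and TET2 therefore moved opposite to TET3 in each culture. Lin28a, an RNA-binding protein that blocks let-7 maturation, fell from 8.46 to 6.29, 6.37 and 6.37. Lin28b and Trim71, both regulators of the same microRNA axis, fell with means of -1.72 and -1.56.

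Germline genes, which are repressed by promoter methylation in most somatic cells, were among those that fell. Of 11 measured members 7 fell and none rose, with a median of -1.48. Mael, a component of the piRNA pathway, fell from 7.85 to 3.31, 3.33 and 3.62. Dazl, a germ-cell RNA-binding protein, fell from 8.05 to 3.86, 4.11 and 3.93. Ddx4, the Vasa helicase, fell from 6.63 to 3.90, 4.23 and 3.89. Tex19.1 did not follow them, with 6.66 in iPS cells and 5.81, 6.72 and 6.37 in the cultures. In the RefSeq promoter table (GRCm38.p6, 250 bases before to 50 after each start) the 7 genes that fell held 21 to 38 CpG dinucleotides each, with a median of 24. The median over 16990 measured genes with a promoter was 13, and it was 19 both for the genes called higher and for those called lower. Such counts were not particular to germline genes. The median was also 24 for the called replication and mitosis genes, and 22 for the called basement membrane genes, which rose. Germline members that did not fall were not compared.

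Mir290a, whose transcript carries the first hairpin of a microRNA cluster of mouse pluripotent cells, was the only listed microRNA gene called with all 3 cultures. It was 1 of 24 measured (4.17% lower, beside 6.7% of all genes). It measured 9.28 in iPS cells and 3.67, 2.88 and 3.84 in the cultures, a difference of -5.82 (range -6.41 to -5.45). Without the culture with both agents 2 were called lower, Mir290a and Mir19a. The mature sequences follow, with the seed (bases 2 to 8) in capitals, because the 3p arm carries the AAGUGC core known from cell-cycle-promoting microRNAs of pluripotent cells. They are from RefSeq, build GRCm38.p6, at chr7:3218639-3218660, plus strand, and chr7:3218674-3218697, plus strand.
mmu-miR-290a-5p: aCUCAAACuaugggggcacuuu
mmu-miR-290a-3p: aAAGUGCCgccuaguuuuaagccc
Array probes on a microRNA gene measure its hairpin or host transcript, not the mature molecule. The Mir302 family, which is active in primed pluripotent cells, gave no call, and Mir302a measured 2.48 in iPS cells and 2.22, 2.03 and 2.43 in the cultures. The epithelial Mir200 family gave no call, and Mir200c measured 5.05 in iPS cells and 5.18, 4.99 and 4.96 in the cultures.

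Across all 478 measured microRNA genes 17 were higher (3.56%) and 8 were lower (1.67%). For comparison, 6.53% of protein-coding genes were higher and 7.41% lower, and 1.15% of long non-coding RNA genes were higher and 1.7% lower. The lower microRNA genes included 3 of the X-linked cluster related to Mir17, picked out after their values were seen. Mir18b fell from 6.71 to 2.81, 2.80 and 2.60. Mir363 fell from 5.03 to 2.38, 2.82 and 2.55. Mir19b-2 fell from 3.27 to 1.95, 2.10 and 2.25. Mir18b was followed along the X chromosome by Ccdc160, Phf6 and Hprt, the next measured genes in the RefSeq order, and all of these fell. Phf6, a chromatin-associated protein, fell from 8.82 to 7.02, 6.66 and 6.72. Hprt, the purine salvage enzyme often used as a reference gene, fell from 10.18 to 8.87, 9.05 and 8.60. The arms printed next, whose seeds differ from each other, lie within chrX:52741697-52742403 on the minus strand of GRCm38.p6 (RefSeq).
mmu-miR-18b-5p: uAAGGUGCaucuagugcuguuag
mmu-miR-363-3p: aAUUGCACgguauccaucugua
mmu-miR-19b-3p: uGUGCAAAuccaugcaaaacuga
Of the Mir17 cluster on the autosome, Mir19a had a difference of -1.08 (range -1.37 to -0.82) and Mir17 measured 5.01 in iPS cells and 5.09, 4.92 and 4.79 in the cultures, and neither was called. Among microRNA genes that rose, Mir23a, Mir23b and Mir27a had mean differences of 1.70, 2.02 and 2.002.

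Replication and mitosis genes were lower throughout. Of 27 measured members 25 fell and none rose, with a median of -2.06. Mcm2, a subunit of the replicative helicase, measured 10.71 in iPS cells and 7.79, 7.93 and 8.20 in the cultures, a difference of -2.74 (range -2.92 to -2.51). All 6 helicase subunits Mcm2 to Mcm7 fell, by means between -2.74 and -1.77. Ccnb2, a mitotic cyclin, fell from 10.68 to 8.06, 7.90 and 8.37. Plk1, a mitotic kinase, fell from 10.02 to 7.47, 7.63 and 7.66. Mki67, the Ki-67 proliferation antigen, fell from 10.46 to 8.40, 8.44 and 8.76. Mybl2, a transcription factor of S phase that is also abundant in stem cells, fell the most of the list, from 10.30 to 6.63, 6.76 and 6.98. Every culture lay below the iPS library for all 27 members, which for the 25 called genes follows from the rule. The 2 members not called were Tyms, at -1.05 (range -1.15 to -0.96), and Pcna, the polymerase clamp, at -0.77 (range -0.90 to -0.65). With the housekeeping shift 23 of the 27 were called, without Cdk1 and E2f1.

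Promoters of these genes often held the CCAAT box, the site of the factor NF-Y. CCAAT on either strand was found in 17 of the 22 called members that had a promoter in the table (77.3%), in 48.4% of the 1161 promoters of lower genes and in 38.5% of all 16990. Ccnb2 is shown because it held 3 copies, which begin 87, 54 and 21 bases before the start; they are in capitals. The stretch is chr9:70421557-70421656, minus strand, GRCm38.p6, from RefSeq, and is printed 5′ to 3′ on the gene's strand.
Ccnb2: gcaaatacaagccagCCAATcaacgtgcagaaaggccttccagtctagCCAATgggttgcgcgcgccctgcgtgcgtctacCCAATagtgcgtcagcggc
This motif was 1 of 18 searched with the expression values already known, and a match is a description of the letters only. The E2F site TTCCCGCC was found in 5.51% of lower genes' promoters, in 2.75% of higher genes' promoters and in 2.93% of all. The octamer ATGCAAAT, bound by OCT4, was in 2.24% of lower and 1.94% of higher promoters against 1.7% of all. Of the 8 core pluripotency genes with a promoter that fell, 1 held it. That gene was Zfp42, which encodes REX1 and fell from 10.33 to 6.30, 6.66 and 6.63. Its match, read here as the reverse complement and set in capitals, begins 186 bases before the start, within chr8:43307142-43307241, minus strand, of GRCm38.p6.
Zfp42: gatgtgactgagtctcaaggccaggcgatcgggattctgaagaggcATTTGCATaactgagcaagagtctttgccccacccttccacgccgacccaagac

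Cell-cycle regulators upstream of replication gave few calls. Among 10 D cyclins and CDK inhibitors 1 rose and 1 fell, beside 5.82% of all genes higher and 6.7% lower. With 1 gene each way, the counts do not set this list apart from all genes. Ccnd2 rose from 7.56 to 10.40, 9.78 and 10.38, while Ccnd3 fell from 9.74 to 8.02, 7.53 and 7.96. Both are G1 cyclins that activate CDK4 and CDK6. Cdkn1a, which encodes p21, measured 10.44 in iPS cells and 11.65, 10.75 and 11.57 in the cultures and was not called. Cdkn1c, an imprinted inhibitor, measured 5.53 in iPS cells and 6.71, 6.39 and 6.67 in the cultures and missed the threshold in the NRG-1 culture. Without that culture 3 of the 10 were called higher, against 1 with all cultures.

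Genes of the visceral endoderm, yolk sac and fetal liver were among those with the widest rises. Of 23 measured members 13 rose and 1 fell, with a median of 1.46. Afp (alpha-fetoprotein), the main fetal plasma protein, rose from 4.76 to 10.72, 11.48 and 10.81, a difference of 6.24 (range 5.96 to 6.72). Apoa1, the core protein of high-density lipoprotein, rose from 4.90 to 9.57, 10.09 and 9.41, a difference of 4.79 (range 4.50 to 5.19). Ttr, which carries thyroid hormone and retinol-binding protein, rose by 4.01 (range 3.70 to 4.47). Rbp4, the retinol carrier it binds, rose from 5.61 to 10.01, 10.69 and 9.38. In all 4 genes the NRG-1 culture was the highest of the 3. The fibrinogen chains Fgb and Fgg rose by 5.77 (range 5.31 to 6.35) and 4.19 (range 3.94 to 4.48). Fga, the remaining chain, measured 3.65 in iPS cells and 4.64, 5.09 and 4.70 in the cultures and missed the threshold narrowly in the DMSO culture. Alb, the albumin of the more mature liver, measured 3.73 in iPS cells and 3.95, 3.75 and 3.92 in the cultures. Rhox5, a homeobox gene of extraembryonic tissue, measured 8.69 in iPS cells and 8.48, 9.26 and 8.73 in the cultures and was not called. Cubn, Lrp2, Amn and Apoe were not called either, with mean differences of 0.78, 0.57, 0.29 and -0.57. Apoc2 was the member that fell, from 7.71 to 6.16, 6.41 and 6.05.

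The transcription factors of endoderm rose with those proteins. Of 12 measured members 7 rose and none fell, with a median of 1.78. Gata4, shared by endoderm and heart, rose from 6.04 to 8.82, 9.35 and 9.16, a difference of 3.06 (range 2.77 to 3.31). Gata6, which can direct stem cells to extraembryonic endoderm, rose from 7.96 to 10.48, 10.65 and 10.75. Sox17, a factor of both definitive and extraembryonic endoderm, rose from 6.15 to 7.74, 8.13 and 8.36. Sox7, which is known from parietal endoderm, rose from 5.38 to 7.23, 7.78 and 7.43. Foxa1, a pioneer factor of endoderm and other epithelia, rose from 5.23 to 8.94, 7.92 and 8.50. Hnf4a, which drives hepatocyte and yolk sac genes, measured 5.76 in iPS cells and 6.39, 6.69 and 6.79 in the cultures and was not called. Cdx2 of the hindgut and trophectoderm measured 5.70 in iPS cells and 5.64, 6.12 and 5.59 in the cultures, and Hhex of the anterior endoderm measured 5.86 in iPS cells and 5.35, 6.03 and 5.75 in the cultures.

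Basement membrane genes had the highest share of calls in the upward direction of the 37 lists. Of 10 measured members 8 rose and none fell, with a median of 2.33. Col4a1 rose from 7.30 to 11.04, 11.87 and 11.39 and its partner chain Col4a2 rose from 7.30 to 10.58, 11.26 and 11.04. These chains form the collagen network of basement membranes. Lama1, the laminin chain of the early embryo and Reichert's membrane, rose from 8.76 to 11.69, 12.10 and 12.16. The laminin chains Lamb1 and Lamc1, which assemble with it, rose by 2.97 (range 2.76 to 3.09) and 2.20 (range 2.01 to 2.39). Nid2 and Hspg2 were not called, with mean differences of 0.45 and 0.63.

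Genes of simple epithelia rose further still in the median. Of 18 measured members 12 rose and none fell, with a median of 2.73. The keratin Krt19 rose from 6.09 to 11.48, 11.01 and 11.23, a difference of 5.15 (range 4.93 to 5.39). Krt8 rose from 7.99 to 11.83, 12.02 and 11.77. Krt18, which pairs with keratin 8 in filaments, rose from 7.34 to 11.95, 11.73 and 11.85. Ocln, the tight-junction protein occludin, rose from 6.32 to 10.42, 10.38 and 10.23. The claudins Cldn3, Cldn4, Cldn6 and Cldn7 rose by means between 2.28 and 3.53. Cdh1, which encodes E-cadherin and is also active in stem cells, rose less, from 8.44 to 9.94, 9.95 and 9.73. Epcam, another adhesion protein shared with stem cells, measured 8.91 in iPS cells and 9.37, 9.81 and 9.26 in the cultures and was not called. The regulators Grhl2 and Grhl3 were not called, and Grhl3 measured 7.48 in iPS cells and 7.46, 6.47 and 7.12 in the cultures.

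**Figure D3:**
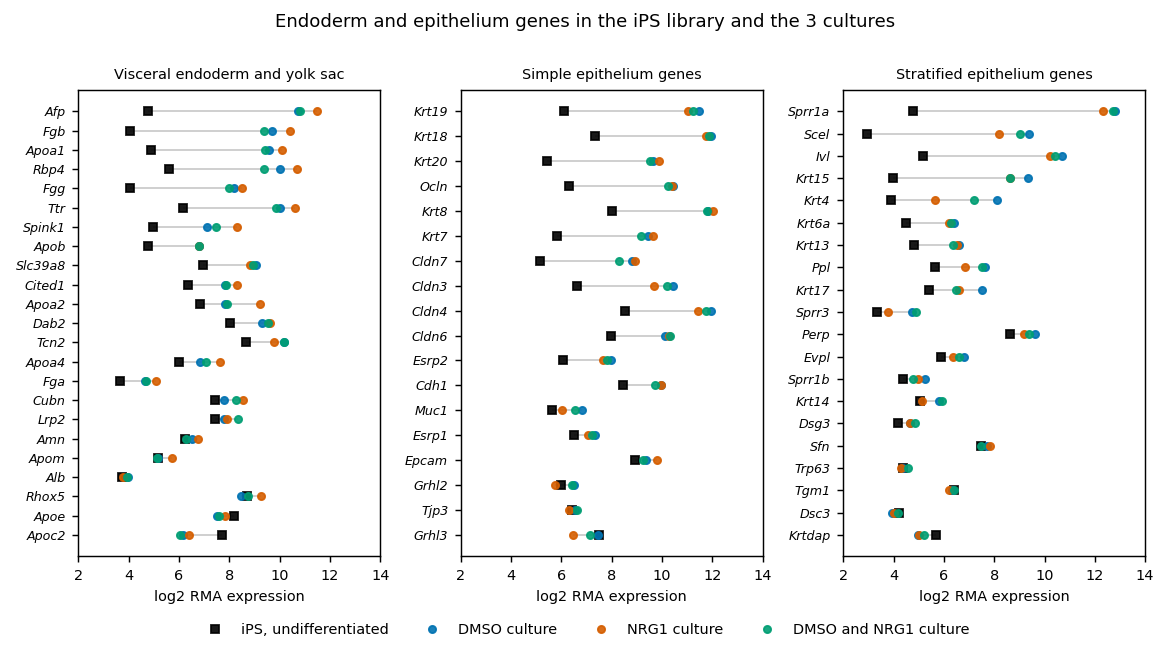
Log2 RMA expression of every measured member of the endoderm and yolk sac, simple epithelium and stratified epithelium lists, with black squares for the iPS library and coloured circles for the 3 cultures. The widest gaps between square and circles are at the top of each panel, at Afp, Krt19 and Sprr1a, and the NRG-1 culture lies left of the others at Krt4.

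Part of the stratified epithelium list rose as far as any gene on the array. Of 20 measured members 9 rose and none fell, with a median of 0.96. Sprr1a, a small proline-rich protein of the cornified envelope, rose from 4.77 to 12.80, 12.34 and 12.71. Its mean difference of 7.85 (range 7.57 to 8.03) had, in its lower end, the largest such value of all genes. Ivl (involucrin), a scaffold of the same envelope, rose from 5.16 to 10.69, 10.21 and 10.40, a difference of 5.28 (range 5.05 to 5.53). Scel (sciellin), which is also laid down in that envelope, rose from 2.96 to 9.38, 8.21 and 9.01, a difference of 5.91 (range 5.25 to 6.42). Krt15, a basal keratin, rose from 3.996 to 9.33, 8.61 and 8.64. Krt4, a keratin of the oesophagus and mouth lining, rose from 3.89 to 8.11, 5.65 and 7.19. In Krt4 the NRG-1 culture was the lowest of the 3, and the range over the cultures was 2.45. Other genes of the same layers gave no call. Trp63, which encodes the master factor p63, measured 4.38 in iPS cells and 4.39, 4.30 and 4.57 in the cultures. Tgm1, the enzyme that cross-links the envelope, measured 6.42 in iPS cells and 6.33, 6.21 and 6.40 in the cultures. Krt14, the partner of keratin 5 in basal cells, measured 5.03 in iPS cells and 5.82, 5.14 and 5.91 in the cultures. Sprr1a was also high in the neonatal and adult heart libraries of the study, at 11.48 and 9.83, as was Scel at 7.58 and 8.32, whereas Ivl measured 5.83 and 5.66 there.

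The promoters of Sprr1a, Ivl, Scel and Krt13 are shown because each matched the loose AP-1 pattern TGANTCA, searched on both strands. N stands for any base. The central base is G in Sprr1a and C in Ivl and Scel, but A in Krt13, whose match reads TGAATCA. They are the 4 members of the list that rose and had a promoter in the table. The share of promoters with a match to this pattern was 9.28% for all higher genes, 4.57% for lower genes and 7.39% for all 16990. The motif and the genes were picked after the values were seen. The short KLF motif CACCC was also in all 4, and in 58.8% of all promoters. AP-1 matches are in capitals, and each stretch of 100 bases lies before the start on the gene's strand (RefSeq, GRCm38.p6). The Sprr1a stretch is chr3:92485960-92486059, minus strand, with matches 146 and 116 bases before the start. The Ivl stretch is chr3:92573799-92573898, minus strand, with its match at 116 bases. The Scel stretch is chr14:103513241-103513340, plus strand, with its match at 36 bases. The Krt13 stretch is chr11:100121710-100121809, minus strand, with its match at 196 bases.
Sprr1a: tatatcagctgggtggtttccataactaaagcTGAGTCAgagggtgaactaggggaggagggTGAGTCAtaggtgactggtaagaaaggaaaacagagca
Ivl: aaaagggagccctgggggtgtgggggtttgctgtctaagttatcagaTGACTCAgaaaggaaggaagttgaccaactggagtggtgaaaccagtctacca
Scel: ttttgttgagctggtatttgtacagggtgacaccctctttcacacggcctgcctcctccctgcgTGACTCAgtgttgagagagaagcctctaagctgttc
Krt13: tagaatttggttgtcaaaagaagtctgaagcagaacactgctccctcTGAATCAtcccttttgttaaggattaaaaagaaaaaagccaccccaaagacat

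Of 20 measured immediate early and stress genes 13 rose and 1 fell, with a median of 1.68. The list holds genes for JUN, FOS and ATF proteins, among others, and the part of these factors in any other gene's value was not tested. Atf3 rose from 6.83 to 11.55, 11.42 and 11.63, a difference of 4.70 (range 4.59 to 4.80). Fosb rose from 5.89 to 10.51, 10.25 and 10.56, and Jun rose from 7.63 to 11.70, 11.28 and 11.78. Fosl2 rose from 6.58 to 9.99, 9.81 and 9.81 and Fos rose from 7.005 to 9.56, 9.03 and 9.67. These genes respond within minutes to serum, plating and handling of cells, and the part of handling in their values was not tested. Junb measured 7.68 in iPS cells and 8.68, 8.56 and 8.57 in the cultures and was just short of a call. Jund measured 8.89 in iPS cells and 9.26, 9.49 and 9.22 in the cultures and was not called, and Egr1, another serum-response gene, had a difference of 0.34 (range 0.20 to 0.43). The member that fell was Ier2, from 8.65 to 7.35, 7.34 and 7.32. Hspa1a and Hspa1b, near-identical genes whose probes may not separate them, rose by 3.16 (range 2.88 to 3.36) and 2.60 (range 2.01 to 3.003).

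Surface genes of stomach and bladder showed a split within the list. Of 13 measured members 6 rose, none fell and 7 were not called, with a median of 0.97. Gkn2 (gastrokine 2), a secreted protein of the stomach surface, rose from 5.39 to 11.26, 12.19 and 11.82, a difference of 6.36 (range 5.87 to 6.79). Psca, a small GPI-anchored surface protein of stomach and bladder, rose from 4.26 to 10.60, 10.21 and 10.47. Mal, a membrane-raft protein of apical transport, rose from 5.02 to 11.65, 10.22 and 11.35. Upk1b, a tetraspanin of the bladder surface and mesothelium, rose from 4.75 to 10.12, 8.02 and 9.75. The other uroplakins did not follow it, as shown by Upk2 at 5.71 in iPS cells and 5.68, 5.91 and 5.65 in the cultures. Muc5ac, the main secreted stomach mucin, measured 3.96 in iPS cells and 4.26, 4.19 and 4.19 in the cultures.

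Heart genes rose in part. Of 19 measured cardiac transcription factors 7 rose and none fell, with a median of 0.84. Among the 7 were Gata4 and Gata6, which were also counted with the endoderm factors above. Ankrd1, a stretch-responsive nuclear cofactor in heart muscle, rose from 7.53 to 11.26, 10.30 and 11.14, a difference of 3.37 (range 2.77 to 3.73). Mef2a rose from 8.13 to 10.13, 9.80 and 10.19, and Tbx20, a T-box factor of the heart tube, rose from 5.66 to 7.07, 6.96 and 7.10. Hand1, a factor of the early left ventricle and of extraembryonic mesoderm, measured 6.01 in iPS cells and 7.82, 6.97 and 7.42 in the cultures and missed the call in the NRG-1 culture by a small margin. Nkx2-5, the homeobox factor of cardiac progenitors, measured 6.69 in iPS cells and 6.71, 6.82 and 6.85 in the cultures. Tbx5, which patterns the left heart, measured 4.97 in iPS cells and 5.52, 5.01 and 5.42 in the cultures. Isl1, a factor of second heart field progenitors, measured 5.34 in iPS cells and 5.59, 5.50 and 5.50 in the cultures. None of these last genes was called, and the widest difference among them was 0.551, for Tbx5 in the DMSO culture.

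Of 25 measured cardiac sarcomere genes 8 rose and none fell, with a median of 0.95. Tnnt2 (cardiac troponin T) rose from 6.35 to 9.32, 8.50 and 9.32, a difference of 2.70 (range 2.15 to 2.97). Myl3, a ventricular essential light chain, rose from 4.52 to 7.04, 7.93 and 7.33, a difference of 2.91 (range 2.52 to 3.41). Myl7, the atrial regulatory light chain, rose from 4.92 to 6.33, 6.71 and 6.98. Myh7 (beta-myosin heavy chain) rose from 5.23 to 6.36, 6.81 and 7.02. In several other sarcomere genes, none of them called, the NRG-1 culture was lower than both cultures with DMSO. Myh6 (alpha-myosin heavy chain) measured 5.82 in iPS cells and 7.04, 5.93 and 7.03 in the cultures. Actn2, the Z-disc alpha-actinin, measured 6.04 in iPS cells and 6.87, 5.63 and 7.002 in the cultures. Csrp3, the muscle LIM protein, measured 5.23 in iPS cells and 7.01, 5.77 and 6.56 in the cultures. Actc1 (cardiac alpha-actin) measured 6.58 in iPS cells and 8.44, 7.46 and 8.20 in the cultures, and Des (desmin) measured 7.90 in iPS cells and 9.31, 8.31 and 9.19 in the cultures. Without the NRG-1 culture 13 of the 25 passed the threshold, among them Myh6, Csrp3, Actc1, Des and Tnni1. Without the DMSO culture 9 passed. Other members, namely Mybpc3, Myl3, Tnnc1, Cryab and Ldb3, ran in the other direction, with the NRG-1 culture highest. Mybpc3 measured 5.30 in iPS cells and 6.35, 7.48 and 6.84 in the cultures, and its call was lost after cyclic loess. Ttn (titin), the giant spring of the sarcomere, measured 5.14 in iPS cells and 5.69, 5.10 and 5.75 in the cultures, and Myl2, the ventricular regulatory light chain, measured 4.94 in iPS cells and 5.70, 5.41 and 5.46 in the cultures.

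Of 19 calcium-handling, channel and natriuretic genes 5 rose and none fell, with a median of 0.28. Nppb (B-type natriuretic peptide), a hormone of stretched heart muscle, rose from 5.54 to 9.54, 9.21 and 9.14, a difference of 3.75 (range 3.59 to 3.996). Ryr2, the calcium release channel of heart muscle, rose from 5.21 to 7.17, 7.43 and 7.53. Pln (phospholamban), the inhibitor of the calcium pump, rose from 4.32 to 6.29, 5.58 and 6.26. Atp2a2, the pump itself, measured 10.69 in iPS cells and 10.77, 10.68 and 10.79 in the cultures. Hcn4, a pacemaker channel, measured 3.88 in iPS cells and 3.48, 3.94 and 3.10 in the cultures, and Gja5, an atrial and conduction connexin, measured 4.11 in iPS cells and 4.54, 4.65 and 3.90 in the cultures. The label of the cultures as cardiomyocytes is therefore matched by part of the heart lists, beside yolk sac and epithelial genes with wider differences, and they are called cultures here. The libraries labelled neonatal and adult cardiomyocytes measured 6.47 and 5.05 for Myh6, and were not used as a reference for heart muscle. In bulk RNA fewer cells of a type and less RNA of a gene per cell cannot be told apart.

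**Figure D4:**
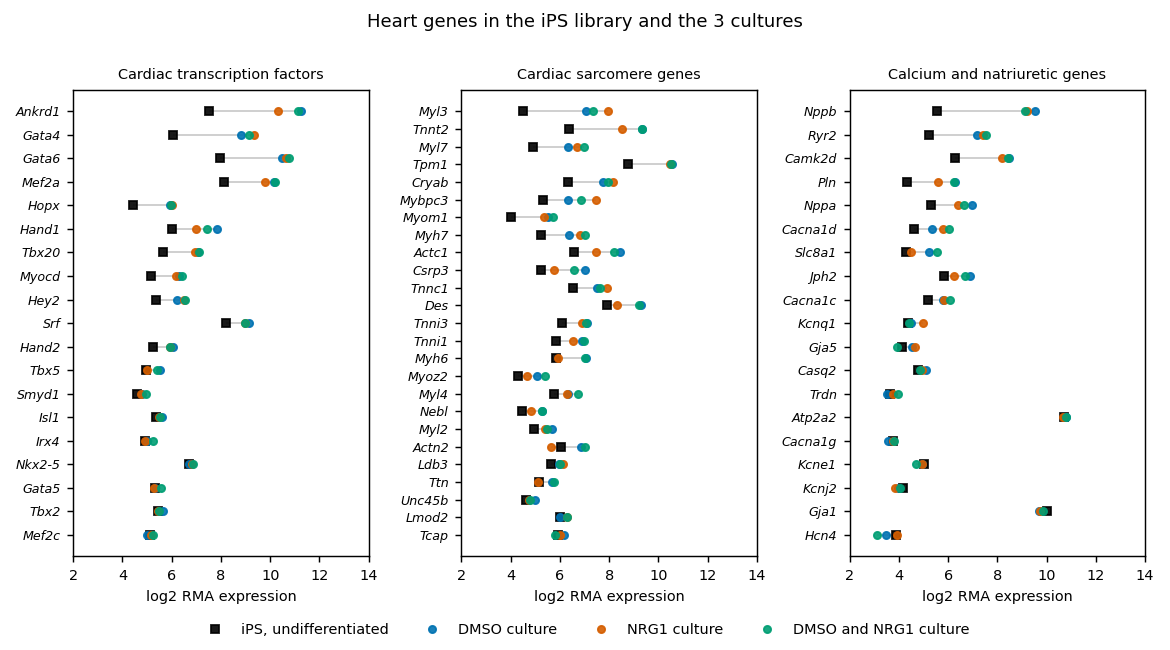
Log2 RMA expression of every measured cardiac transcription factor, sarcomere gene and calcium-handling, channel or natriuretic gene, with black squares for the iPS library and coloured circles for the 3 cultures. Ankrd1, Myl3 and Nppb head the panels with all circles right of the square, while for Myh6, Actn2 and Des the NRG-1 circle lies left of the other circles.

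Mesenchymal genes rose for some members. Of 22 fibroblast and interstitial matrix genes 8 rose and none fell, with a median of 0.75. Pdgfra, a receptor of mesenchyme and of extraembryonic endoderm, rose from 7.13 to 10.43, 10.65 and 10.69. Col1a1, a chain of type I collagen, rose from 8.61 to 11.56, 11.23 and 11.54. Dcn (decorin), a collagen-binding proteoglycan, rose from 6.69 to 9.71, 8.74 and 8.96, with the NRG-1 culture lowest. Thy1, a fibroblast surface antigen, measured 6.31 in iPS cells and 5.56, 5.77 and 5.46 in the cultures. Vim and Fn1 had mean differences of 0.45 and 0.88. The mean level over the list was 6.69 in iPS cells and 7.89, 7.49 and 7.78 in the cultures. Feeder cells are fibroblasts, and the part of carried-over feeder RNA in the iPS values was not tested. Of 10 smooth muscle contractile genes 5 rose, with a median of 0.98. Actg2 (gamma smooth muscle actin) rose from 6.03 to 8.39, 7.28 and 8.22. Acta2 measured 11.08 in iPS cells and 11.82, 11.12 and 11.85 in the cultures and Myh11, a marker of mature smooth muscle, measured 5.80 in iPS cells and 5.61, 5.96 and 5.77 in the cultures.

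Lists of other cell types each had a minority of members called, beside 5.82% of all genes higher and 6.7% lower. Of 11 endothelial genes 2 rose (18.2%) and 2 fell (18.2%). Flt1 and Cdh5 rose, by 3.41 (range 3.22 to 3.65) and 2.31 (range 2.15 to 2.60). Pecam1 and Eng, which mouse stem cells also express, fell, with differences of -2.45 (range -2.49 to -2.37) and -2.75 (range -2.97 to -2.52). Kdr, the main VEGF receptor, measured 5.56 in iPS cells and 5.34, 5.40 and 5.47 in the cultures, and Tek measured 6.05 in iPS cells and 6.12, 6.02 and 6.21 in the cultures. Of 10 macrophage genes 4 rose (40.0%) and none fell. These were Cd68, Csf1r, Cd14 and Fcgr3, with Csf1r going from 5.97 to 8.04, 8.21 and 8.13. The defining leukocyte genes were not called, as Ptprc measured 3.51 in iPS cells and 3.51, 3.55 and 3.58 in the cultures and Adgre1 measured 3.98 in iPS cells and 4.03, 3.82 and 3.97 in the cultures. The mean level over the macrophage list was 4.93 in iPS cells and 5.76, 5.75 and 5.86 in the cultures. Of 8 erythroid and early blood genes none rose and 2 fell (25.0%), the embryonic globins Hbb-bh1 and Hba-x, with differences of -1.53 (range -2.07 to -1.07) and -1.08 (range -1.12 to -1.03). Both were dim, as the median of all values in the 4 libraries was 5.21. Hbb-bh1 measured 5.41 in iPS cells and 3.97, 4.33 and 3.34 in the cultures. Hba-x lay below that median in every library, with 4.13 in iPS cells and 3.01, 3.02 and 3.10 in the cultures. Neither globin was called with the housekeeping shift. Of 10 neural genes none rose and 2 fell (20.0%), Sox1 and Tubb3, with differences of -2.87 (range -2.96 to -2.82) and -3.20 (range -3.61 to -2.93). Without the NRG-1 culture 1 neural gene, Nes, was called higher. Of 10 trophoblast genes 1 rose and 1 fell. Tfap2c fell from 7.67 to 5.66, 5.94 and 5.86, and Plac1 rose from 3.98 to 5.40, 5.09 and 5.26 but was not called after cyclic loess normalization between arrays. In this list 2 genes were called higher without the NRG-1 culture, and also without the DMSO culture.

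**Figure D5:**
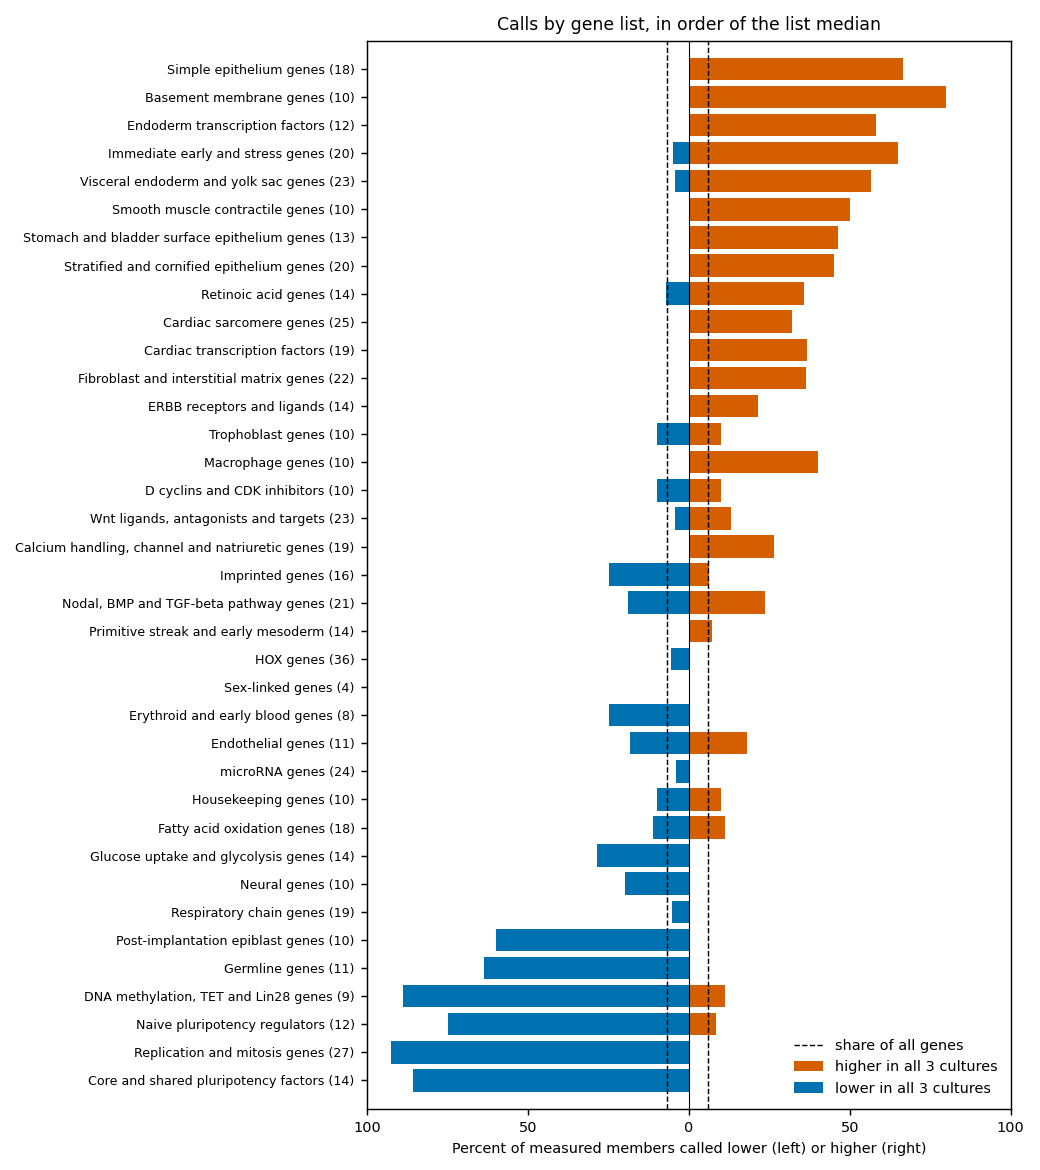
Share of the measured members of each of the 37 gene lists that were higher (right) or lower (left) than iPS cells in all 3 cultures, in order of the list's median difference, with the number measured in parentheses and dashed lines at the shares over all genes, 5.82% and 6.7%. Basement membrane and simple epithelium genes lead on the right, and replication, methylation and core pluripotency genes on the left.

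Of 14 retinoic acid genes 5 rose (35.7%) and 1 fell (7.14%), with a median of 0.96. Over all genes 5.82% were higher and 6.7% lower. Cyp26a1, which breaks down retinoic acid and is itself induced by it, rose from 5.15 to 10.03, 10.60 and 10.32, a difference of 5.17 (range 4.88 to 5.45). Rdh10, which makes retinaldehyde from retinol, rose from 6.03 to 10.87, 10.54 and 10.75. The receptor gene Rarb, another induced gene, rose from 5.38 to 7.48, 7.29 and 7.35. Aldh1a1, which makes retinoic acid, rose from 6.02 to 8.64, 7.15 and 8.37, with the NRG-1 culture lowest. Aldh1a2, the main such enzyme of embryonic mesoderm, measured 5.43 in iPS cells and 4.23, 4.64 and 4.79 in the cultures. Crabp1, a binding protein for retinoic acid, fell from 8.60 to 6.07, 6.53 and 6.09. Without the DMSO culture 2 of these genes were called lower, with Rarg the second.

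Of 21 Nodal, BMP and TGF-beta genes 5 rose and 4 fell. The ligand Nodal and its feedback inhibitors Lefty1 and Lefty2, all active in stem cells, fell by -2.46 (range -2.53 to -2.34), -3.24 (range -3.28 to -3.21) and -3.57 (range -3.78 to -3.41). Bmp4 fell from 9.54 to 7.99, 6.04 and 7.61, while Bmp2 rose from 4.90 to 9.36, 9.81 and 9.39. These BMP ligands, close relatives that use the same receptors, moved in opposite directions in each culture. Fst (follistatin), which binds activin, rose from 7.09 to 11.02, 11.56 and 11.52. Id1, a BMP target, measured 6.66 in iPS cells and 7.19, 5.98 and 6.81 in the cultures, so that the NRG-1 culture was below the iPS library and the others above it. Bmp7 measured 7.53 in iPS cells and 9.06, 7.40 and 8.73 in the cultures. Without the NRG-1 culture 9 of the 21 were called higher, against 5 with all cultures.

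Of 14 ERBB receptors and ligands 3 rose (21.4%, beside 5.82% of all genes) and none fell. Egfr rose from 6.22 to 10.85, 10.39 and 10.73, a difference of 4.43 (range 4.17 to 4.63). Hbegf, a ligand of EGFR and ERBB4, rose from 7.72 to 10.84, 10.78 and 10.84. Nrg1 itself rose from 6.56 to 8.03, 8.10 and 8.09, where the first of the 3 cultures had received no NRG-1 protein. The receptors for NRG-1 were not called. Erbb2, the shared co-receptor, measured 6.70 in iPS cells and 7.55, 7.40 and 7.48 in the cultures. Erbb3 measured 7.83 in iPS cells and 7.77, 7.61 and 7.75 in the cultures, and Erbb4, the receptor known from heart muscle, measured 3.57 in iPS cells and 3.90, 3.45 and 3.76 in the cultures. Of 23 Wnt genes Frzb, Dkk3 and Wnt7b rose (13.0%) and Wnt8a fell (4.35%, beside 6.7% of all genes). Without the NRG-1 culture 5 were called higher, and without the DMSO culture 3 were called lower. Frzb, a secreted Wnt antagonist, rose from 4.98 to 7.98, 8.55 and 8.43. Axin2, a general target of Wnt signalling, measured 6.50 in iPS cells and 6.28, 6.35 and 6.18 in the cultures.

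Of 14 glucose uptake and glycolysis genes 4 fell (28.6%, beside 6.7% of all genes) and none rose, and with the housekeeping shift 1 of them, Pdk1, was still called. Slc2a3, a glucose transporter of stem cells, fell from 11.28 to 10.01, 9.47 and 10.14. Of 19 respiratory chain genes 1 fell (5.26%, beside 6.7% of all genes) and none rose, with a median of -0.60. Of the 19, 2 were called lower and 1 higher without the NRG-1 culture. Of 18 fatty acid oxidation genes 2 rose and 2 fell (11.1% each, beside 5.82% and 6.7% of all genes), and with the housekeeping shift none was called lower. Cd36, a fatty acid transporter, rose from 3.65 to 6.69, 7.06 and 6.75. Ppargc1a, a coactivator of mitochondrial genes, rose from 3.47 to 7.22, 5.48 and 6.42, with the NRG-1 culture lowest. Of 16 imprinted genes 4 fell (25.0%) and 1 rose, and 2 were called higher without the NRG-1 culture or without the DMSO culture. Mest fell from 11.01 to 8.87, 7.13 and 8.63, and Sgce rose from 7.40 to 9.31, 8.91 and 9.29. Of 36 HOX genes none rose and 2 fell (5.56%, beside 6.7% of all genes), so the count of lower genes does not set this list apart. Hoxa2 had a difference of -1.35 (range -1.47 to -1.13), and Hoxb1 went from 7.77 to 5.83, 5.61 and 5.56. None of the 4 sex-linked genes was called. Among 10 housekeeping genes Gapdh measured 12.18 in iPS cells and 12.01, 11.56 and 12.001 in the cultures and Actb measured 11.23 in iPS cells and 11.53, 11.35 and 11.40 in the cultures. B2m, the light chain of MHC class I, rose from 9.07 to 11.69, 11.68 and 11.65.

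Beyond the lists, the genes with the largest smallest difference over the cultures are described here as a ranking and not as evidence. The upward ranking began with Sprr1a, Afp, Psca, Gkn2, Fgb, Scel, Mal, Ivl and Krt19, described above. It went on with F3 (tissue factor, the starter of blood clotting), which rose from 6.97 to 11.85, 12.07 and 11.89. Tinagl1, a matrix protein of basement membranes, rose from 7.28 to 12.15, 12.30 and 12.30. Trpv3, a warmth-activated channel of skin keratinocytes, rose by 4.99 (range 4.79 to 5.26). Sgms2, a sphingomyelin synthase, and Crim1, a membrane protein that binds BMPs, rose by 4.94 (range 4.77 to 5.12) and 5.02 (range 4.75 to 5.15). The downward ranking held Trh, the precursor of thyrotropin-releasing hormone, which fell from 10.41 to 4.65, 4.59 and 4.69. Pipox, a peroxisomal oxidase, fell from 9.98 to 4.81, 4.89 and 5.02. Tcf15, a bHLH factor known from stem cells primed to differentiate and from somites, fell from 10.07 to 4.95, 5.32 and 5.43. Zfp640, Zfp980, Zfp981, Zfp992, Rex2, Zscan4e and Mup6 were also in it, with means between -7.06 and -4.69. These belong to families of near-identical copies, so probes may not separate them from their relatives. Neighbouring genes were also called alike in 14 runs of 4 or more, some of them higher and some lower. A run that fell held Apobec1, Gdf3, Dppa3, Nanog and Slc2a3.

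At the edge of the call, Itga5 was just inside with differences of 1.001 to 1.38, and Fga was just outside with 0.997 to 1.44. On the lower side Hus1 was just inside with -1.22 to -1.001, and Rbm26 was just outside with -1.17 to -0.999.

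The cultures resembled each other for most called genes. The range over the 3 cultures was under 0.5 for 916 (71.0%) of the higher and 1186 (79.9%) of the lower genes. It was 1 or more for 83 higher genes, and in 75 of them the NRG-1 culture was the one apart. For the lower genes it was 1 or more in 33, with the NRG-1 culture apart in 24. Between the DMSO culture and the culture with both agents 50 genes were at least 1 log2 apart. The NRG-1 culture differed that much from the DMSO culture in 338 genes and from the culture with both in 227. Without the NRG-1 culture 1637 genes were higher and 1669 lower. Without either of the others the higher count was 1382 or 1346. Osr1, a zinc finger factor of intermediate and lateral mesoderm, had the widest range among the called genes, with 6.17 in iPS cells and 10.43, 7.63 and 9.76 in the cultures. Mal2, a protein of apical transport in epithelia, measured 5.47 in iPS cells and 10.06, 7.52 and 9.60 in the cultures. Tmprss11e, an epithelial serine protease, measured 4.11 in iPS cells and 8.77, 6.25 and 8.45 in the cultures. Msln (mesothelin), a surface protein of mesothelium, measured 6.15 in iPS cells and 10.35, 8.34 and 9.93 in the cultures. In these 4 genes the NRG-1 culture lay between the iPS library and the other cultures. Bmp4 and Trp53i11 were below the iPS library in all cultures and lowest with NRG-1 alone, with Trp53i11 at 10.23 in iPS cells and 8.68, 6.53 and 8.46 in the cultures. Each culture was 1 library, so the treatment and the single culture cannot be told apart.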

How the data were processed

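Per the labels' protocols, TRIzol extraction was followed by column purification, and 300 ng of total RNA entered the labelling reaction. The deposited values are log2 expression of 41345 probe sets. Per the submitters' processing notes the authors used RMA, whose software and version, like the genome build, are not given in these sources. The log2 scale follows from their narrow range. Once sorted, the 4 libraries were within 0.25 of each other, and total RNA per cell therefore cannot be compared. No detection calls were used.

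The platform annotation gave 1 symbol to 23521 probe sets and several to 1814, which were left out; 16010 are unnamed. RefSeq held 23328 of the single-symbol probe sets by Entrez identifier and changed no symbol. Of 22180 genes 1082 had more than 1 probe set. Differences, ranges and calls were computed in Python 3.11.15 with pandas 2.3.3, and cyclic loess in limma 3.58.1 (R 4.3.3). The steps were tested on simulated data.

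Of 625 entries in 37 lists 580 were measured; lists share members. The members and lists were chosen with earlier results of these data known. The text names list members by role, the 15 genes with the largest smallest difference each way, 10 genes by range and genes at the threshold; some were shortened to ranges. Motifs (18 searched, both strands, first listed promoter of a gene), microRNAs outside the lists, neighbour runs and name families were picked after the values were seen. Alternatives were filters on dim genes at the median and the 75th percentile, the brightest probe set, cyclic loess, a housekeeping shift, a 2 log2 threshold, the mean rule and leaving out each culture. The number of arrays limits the precision.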

Additional observations from a re-analysis of the deposited data

Results flagged for a closer look

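Probe sets that the platform annotation used here leaves unnamed took no part in the gene comparison, and some of them differed between the cultures and the iPS library. Of 16010 unnamed probe sets 929 were at least 1 log2 higher in all 3 cultures (5.8%) and 405 were at least 1 log2 lower (2.53%). For named genes the shares were 5.82% and 6.7%. What these probe sets measure was not tested. With 1 library in each group, no group could be searched for a sample apart from the others.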

How the results depend on the processing

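The comparison has 1 library in each group, and the only iPS library enters every difference. No paired analysis was possible because each group held a single library. No called direction reversed with the brightest probe set, cyclic loess or the housekeeping shift. The filters, the 2 log2 threshold, the mean rule and leaving out a culture could not reverse a call, because they reuse the same differences. The counts of higher and lower genes stayed within 1.5 times of 1290 and 1485 under both filters (1272 and 1435 at the median, 1085 and 1170 at the 75th percentile), the brightest probe set (1320 and 1515), cyclic loess (1275 and 1527), the housekeeping shift (1545 and 1140) and the mean rule (1733 and 1927). At a threshold of 2 log2 they were 335 and 350. Leaving out each culture in turn gave 1346 to 1637 higher and 1601 to 1669 lower genes, and without a culture fewer conditions have to pass, so the count can only grow. List counts that moved by over 1.5 times without 1 culture stand beside each list in the report.

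Among named genes, cyclic loess ended the calls of Mybpc3, Myocd, Fcgr3, Hba-x and Plac1, and the housekeeping shift those of E2f1, Cdk1, Cpt1a, Echs1, Pfkp, Pgam1, Slc2a3, Pim2, Stk31, Hba-x and Hbb-bh1. The brightest probe set ended those of Col1a2 and Pgam1. Of 115 called genes with more than 1 probe set, 49 had all probe sets called alike and 110 had all of one sign.

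List medians kept within 0.58 of their value with the brightest probe set, both scalings and each culture left out. Filters on dim genes moved some of them. The filters kept a gene by its highest value of the 4 libraries, so a gene can pass through the group where it is high, and the medians below describe only the genes left. With the filter at the median, the medians became -2.39 for germline, 1.11 for calcium-handling, 1.57 for stratified epithelium, 2.26 for stomach and bladder, 1.77 for macrophage, 1.13 for ERBB genes and 0.78 for the 1 sex-linked gene left. At the 75th percentile they became -1.86 for epiblast, -4.26 for 2 germline genes, 2.55 for the 1 primitive streak gene left (Foxa2), 1.91 for cardiac transcription factors, 1.74 for calcium-handling, 3.49 for simple epithelium, 3.10 for stratified epithelium, 4.54 for stomach and bladder, 1.59 for fibroblast, 2.58 for 2 macrophage genes, -2.87 for 3 neural genes, 1.09 for 3 trophoblast genes, 1.32 for ERBB, 0.84 for Nodal and BMP, 1.17 for Wnt genes, -2.10 for the 1 HOX gene left (Hoxb1) and -5.82 for the 1 microRNA gene left (Mir290a). The blood and sex-linked lists had no gene left at that filter.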

Other observations

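Genes were also grouped by the stem of their names, 200 families of 12 or more measured genes, and the families below were picked after the values were seen. The interferon-inducible Ifi genes had 7 of 14 members higher in all 3 cultures and none lower. Ifi205, a DNA-sensor family member, rose from 5.20 to 8.94, 7.72 and 8.95, and Ifi30, a lysosomal thiol reductase, rose from 9.50 to 11.003, 11.20 and 10.98. The MHC class I gene H2-K1 rose from 5.82 to 7.44, 7.65 and 7.60, in the same direction as its light chain B2m in the report, though class I genes are near-identical and their probes may not separate them. Tap1, the peptide transporter of the same pathway, measured 7.20 in iPS cells and 7.39, 7.06 and 7.45 in the cultures, and Psmb8, an immunoproteasome subunit, measured 6.46 in iPS cells and 6.71, 6.64 and 7.06 in the cultures; neither was called.

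Nucleoporin genes, which encode the pores of the nuclear envelope, had 8 of 18 members lower (44.4%, beside 6.7% of all genes) and none higher. Nup210, a membrane-anchored nucleoporin, fell from 7.52 to 5.23, 5.28 and 5.29, and Nup133, a scaffold member, fell from 9.47 to 7.32, 7.46 and 7.48. The Platr genes, long non-coding RNAs named for their link to pluripotency, had 6 of 14 lower (42.9%). Platr10 fell from 8.21 to 3.89, 3.75 and 4.004. Pramel genes, a multicopy family, had 10 of 30 lower (33.3%). On the other side, 12 of 53 keratin genes (22.6%) and 7 of 25 Serpinb genes (28.0%) were higher and none lower. Over all genes 5.82% were higher. Serpinb6b rose from 5.44 to 10.51, 10.01 and 10.29, and its close relatives Serpinb9c, Serpinb9d, Serpinb9e and Serpinb9f, which may share probes, form a run of neighbours that all rose. Krt23 and Krt16, keratins outside the lists, rose by 3.27 (range 3.15 to 3.40) and 2.46 (range 2.29 to 2.67).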
